A study of Mus musculus with 8 samples.

Results

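The 6 genes described here are 5 subtilisin-type convertases, Furin, Pcsk5, Pcsk6, Pcsk7 and Mbtps1, and Corin, a membrane serine protease that a convertase activates. They are 6 of 37583 gene rows counted in 8 mouse kidney libraries, found by the Ensembl identifiers of their symbols, and all 6 passed the filter on low counts that left 15228 genes for testing. The family was selected on the measured fall of Pcsk6: its CPM values in these 8 libraries, knockout against wildtype, were among the most consistently lower, and its relatives were added. The differences of these 6 genes are therefore given as a description, without a test of their own.

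The libraries came from whole kidneys, 4 labelled knockout and 4 labelled wildtype. The knockout mice carried floxed TFAP2B alleles (TFAP2Bfl/fl) together with b-actinCreERT2, a Cre recombinase that tamoxifen activates and a beta-actin promoter drives, hence one that is not confined to a kidney cell type. The wildtype group, labelled WT, was made up of control littermates. The labels give no age, no time after induction and no treatment of the controls, and the p-values below measure only the spread between these libraries. The gene counts came to 13435113 to 17930347 per library in the KO-labelled group and 13783857 to 17741722 in the WT-labelled group. Whole-gene counts of Tfap2b, the transcription factor AP-2 beta, were higher in all KO-labelled libraries, at 237 to 266 CPM (counts scaled to the library total, with TMM factors), against 94.3 to 110.5 CPM in the WT-labelled ones. Such counts include exons outside a deleted part and do not check the deletion, so the groups are named by their labels throughout. KO-labelled library 4 stood apart in adrenal cortex markers, with a summed 249.1 CPM over 9 genes, against 10.1 to 10.8 CPM in the other KO-labelled and 7.64 to 10.8 CPM in the WT-labelled libraries.

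As background, furin acts mainly in the trans-Golgi network and at the cell surface, PCSK5 and PCSK6 are secreted and can be held at the cell surface or in the matrix, and PCSK7 is anchored in the membrane. Mbtps1 encodes site-1 protease, a Golgi enzyme that releases the membrane-bound transcription factors SREBP and ATF6. Corin converts the precursor of atrial natriuretic peptide into the active hormone, and PCSK6 cuts the corin zymogen to activate it. In the kidney, furin-like enzymes also cut subunits of the epithelial sodium channel.

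Since the factor whose alleles were floxed is an AP-2 protein, the promoters of the 6 genes were searched for the palindromic AP-2 consensus GCCNNNGGC and its longer-spaced form GCCNNNNGGC, each of which reads the same on both strands. Shown are the 250 bases before the RefSeq transcription start (GRCm38.p6) of Pcsk6, the gene with the largest difference, of Furin, whose second start is as rich in G and C, and of Corin, which differed least. Capitals mark the motif matches.
Pcsk6: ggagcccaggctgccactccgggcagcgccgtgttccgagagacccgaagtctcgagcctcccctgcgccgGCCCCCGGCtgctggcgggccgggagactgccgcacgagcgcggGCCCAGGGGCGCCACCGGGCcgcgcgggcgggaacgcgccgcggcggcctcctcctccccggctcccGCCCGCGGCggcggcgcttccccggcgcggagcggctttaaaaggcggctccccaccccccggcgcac
Furin: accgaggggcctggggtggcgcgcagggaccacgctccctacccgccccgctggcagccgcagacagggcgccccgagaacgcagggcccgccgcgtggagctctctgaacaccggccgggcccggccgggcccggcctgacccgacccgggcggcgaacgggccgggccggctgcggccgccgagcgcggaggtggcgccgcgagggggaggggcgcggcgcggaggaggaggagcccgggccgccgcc
Corin: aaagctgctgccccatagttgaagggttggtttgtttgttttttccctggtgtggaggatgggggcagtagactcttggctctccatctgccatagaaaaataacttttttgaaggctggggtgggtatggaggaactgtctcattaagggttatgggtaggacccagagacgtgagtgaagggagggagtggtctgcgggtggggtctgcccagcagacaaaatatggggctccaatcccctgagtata

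The Pcsk6 window, at chr7:65861886-65862135 on the plus strand, was 81.2% G and C and held 4 matches, 2 of each spacing. The 2 longer-spaced matches lay side by side, with no overlap, and began 135 and 125 bases before the start. The Furin window, at chr7:80402813-80403062 on the minus strand, was 83.2% G and C and held 0 matches, as did the other Furin window. The Corin window, at chr5:72504541-72504790 on the minus strand, was 51.2% G and C and also held 0. Of the other members, Pcsk7 and Mbtps1 had 1 match each and Pcsk5 had 0. At least 1 match was found in 23% of all 32851 RefSeq windows, with GCCNNNGGC in 13.7% and GCCNNNNGGC in 12.3%. Among the 982 windows within 5 percentage points of the base composition of Pcsk6, 78.1% held a match and 5.8% held 4 or more. A match is a string of letters and not a measured binding site.

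Pcsk6 was the member with by far the largest difference. It stood at 24.7, 26.9, 21.2 and 25.8 CPM in the 4 KO-labelled libraries, against 79.8, 75.1, 76.4 and 95.8 CPM in the 4 WT-labelled ones, from 357 to 459 reads and 1028 to 1579 reads per library. The groups were far apart, with every KO-labelled library below every WT-labelled one, and WT-labelled library 4 was the highest of all. The mean was 24.6 ± 2.43 CPM, against 81.8 ± 9.54 CPM (SD, n = 4 each), a 3.32-fold lower level in the KO-labelled kidneys (log2 fold change -1.73 ± 0.10, SE). Leaving out any 1 library gave -1.78 to -1.65, and without KO-labelled library 4, the library with adrenal transcripts, it was -1.75.

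Furin, the most widely expressed convertase, was lower by a much smaller amount. Its level was 239, 225, 282 and 241 CPM in the KO-labelled libraries, against 287, 294, 304 and 307 CPM in the WT-labelled ones. The groups did not overlap, although KO-labelled library 3 came within a few CPM of the lowest WT-labelled library. The log2 fold change was -0.27 ± 0.080 (SE), a 1.21-fold lower level in the KO-labelled group.

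Pcsk7, which is known to cut the transferrin receptor, had a coefficient of variation of 3.14% in the KO-labelled and 3.92% in the WT-labelled libraries. It stood at 42.7, 45.4, 43.1 and 45.1 CPM in the KO-labelled libraries and at 53.0, 54.2, 54.4 and 49.9 CPM in the WT-labelled ones. The groups were separate, with a log2 fold change of -0.26 ± 0.062 (SE). With library totals in place of TMM scaling, which moves the median of all genes from 0.00039 to 0.11, the Pcsk7 difference was -0.16. In the GENCODE M21 annotation 10.1% of the exonic bases of Pcsk7 overlap exons of Tagln and Rnf214 on the other strand, and counts made without strand cannot separate these genes there.

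Pcsk5, the secreted relative of Pcsk6, overlapped between the groups. It stood at 37.5, 24.7, 32.3 and 32.0 CPM in the KO-labelled libraries and at 34.1, 40.9, 44.9 and 44.3 CPM in the WT-labelled ones. KO-labelled library 1 lay above WT-labelled library 1, and KO-labelled library 2 was the lowest of the 8. The log2 fold change was -0.38 ± 0.13 (SE). In a fit that also held a circadian clock score as a covariate it was -0.032. That score, the mean log2 CPM of 7 clock output genes minus that of 4 clock activator genes, ran from -1.73 to 1.27 in the KO-labelled libraries and from 0.475 to 3.44 in the WT-labelled ones. The groups overlapped in this score only at library 1 of each, so the fit separates the score poorly from the group label. Calls that ended in that fit, here and below, are therefore not assigned to the clock. The part of the score in the Pcsk5 difference was not tested further.

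Mbtps1, the site-1 protease gene, stood at 120.2, 103.1, 118.2 and 104.3 CPM in the KO-labelled libraries and at 121.0, 127.4, 133.5 and 134.2 CPM in the WT-labelled ones. The highest KO-labelled and the lowest WT-labelled library almost met. The log2 fold change of -0.21 ± 0.074 (SE) was -0.11 with library totals and -0.096 in the fit with the clock covariate.

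Corin was the member that differed least. It stood at 13.6, 13.2, 14.7 and 15.2 CPM in the KO-labelled libraries, inside the range of 15.0, 15.1, 17.9 and 11.3 CPM in the WT-labelled ones. The log2 fold change was -0.07 ± 0.13 (SE), and it was 0.04 with library totals and 0.04 without WT-labelled library 3. The depth behind these values was modest, at 186 to 307 reads per library, and 2.72% of the exonic bases of Corin overlap an antisense gene, Gm20647.

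**Figure D1:**
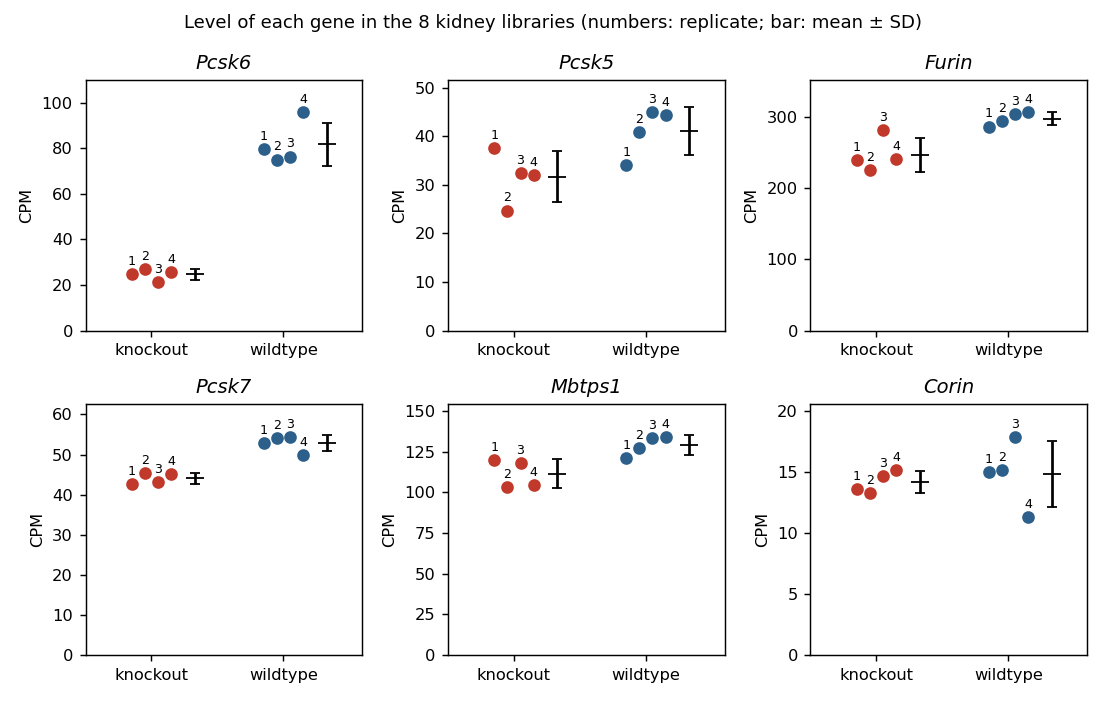
TMM-scaled CPM (y axis, from 0) of the 6 genes in the 4 KO-labelled (red, left) and 4 WT-labelled (blue, right) libraries, with replicate numbers above the points and mean ± SD as bars. Pcsk6 sits at 21.2 to 26.9 CPM against 75.1 to 95.8 CPM, whereas the groups of Corin overlap.

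Of the 6 members, 2 passed edgeR's adjusted p of 0.05, Pcsk6 and Pcsk7, both lower, and the background of such calls was 5.7% of the 15228 genes tested. The groups did not overlap for 4 members, all lower in the KO-labelled libraries, where 9.05% of all tested genes were apart in that direction. Without WT-labelled library 2, or without WT-labelled library 3, 1 member passed. Of all tested genes, 9% and 8.08% then passed, against 11.9% with all libraries. Nothing is read from these counts, since this contrast led to the choice of the family. For the same reason as a description only, the members' median log2 fold change was -0.27, against 0.00039 for all genes tested.

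Per length of exon, the order of the members differed between the groups in the place of Pcsk6. In the KO-labelled kidneys Furin averaged 26.9 ± 2.64 CPM per kb, Mbtps1 10.6 ± 0.85, Pcsk7 8.47 ± 0.27, Pcsk6 4.75 ± 0.47, Corin 2.62 ± 0.17 and Pcsk5 2.19 ± 0.37 CPM per kb (SD, n = 4). In the WT-labelled kidneys the levels were 32.5 ± 0.998 CPM per kb for Furin, 15.8 ± 1.84 for Pcsk6, 12.2 ± 0.59 for Mbtps1, 10.2 ± 0.40 for Pcsk7, 2.84 ± 0.34 for Pcsk5 and 2.74 ± 0.50 for Corin. Pcsk6 thus stood above Mbtps1 and Pcsk7 in the WT-labelled group and below both in the KO-labelled one, while Corin and Pcsk5 overlapped each other in both groups. The lengths are those of all exons merged in GENCODE M21 on GRCm38, not of the annotation behind the counts, and the ranking shares that limit. Without division by length, the WT-labelled mean of Mbtps1 was 129.0 CPM, above that of Pcsk6 at 81.8 CPM. The change of order against Mbtps1 thus rests on the merged lengths, 10539 bases for Mbtps1 and 5190 for Pcsk6. The change against Pcsk7 was also seen in CPM, where Pcsk7 averaged 52.9 in the WT-labelled and 44.1 in the KO-labelled libraries. Pcsk6 averaged 81.8 and 24.6 CPM there.

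Outside the chosen set, Pcsk4, a convertase known from the testis, had 3.81 ± 0.59 CPM per kb in the KO-labelled and 3.88 ± 0.38 in the WT-labelled libraries (SD, n = 4 each), means above those of Pcsk5 and Corin in both groups. Pcsk1 and Pcsk2, the convertases of neuroendocrine cells, had at most 1 and 6 reads in any library and were not tested. Of the summed per-length level of Furin, Pcsk4, Pcsk5, Pcsk6, Pcsk7 and Mbtps1, Pcsk6 made up 8.36%, 9.49%, 6.84% and 8.94% in the KO-labelled libraries, against 20.7%, 19.0%, 18.9% and 22.8% in the WT-labelled ones. Without Pcsk6, the sum was 49.4 to 55.7 CPM per kb in the KO-labelled and 58.8 to 63.3 CPM per kb in the WT-labelled libraries. These shares and sums rest on the same merged exon lengths and share their limit.

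**Figure D2:**
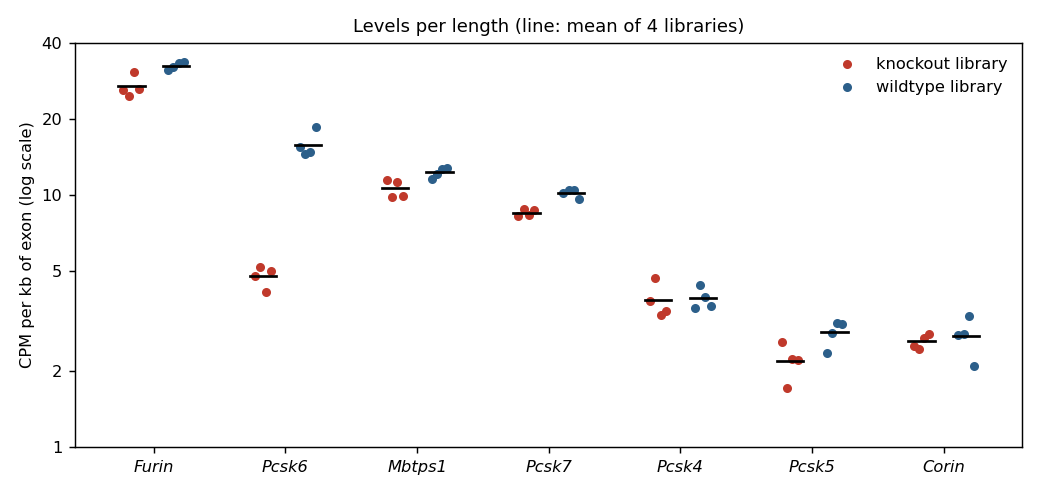
CPM per kb of exon (y axis, log scale) of the 6 genes and of Pcsk4, with each KO-labelled library in red at left, each WT-labelled library in blue at right and the group mean as a line. Pcsk6 averages 4.75 CPM per kb against 15.8 CPM per kb, below and above Mbtps1 and Pcsk7.

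Markers of the distal convoluted tubule and the thick ascending limb were lower in the same libraries in which Pcsk6 was lower. Of 8 distal convoluted tubule markers 7 were tested and all 7 fell, with a summed level of 2289 to 2645 CPM in the KO-labelled libraries against 6244 to 6649 CPM in the WT-labelled ones. Egf was the largest part of that sum, with a mean of 1153 CPM in the KO-labelled and 3734 CPM in the WT-labelled libraries. All 7 thick ascending limb markers fell too, to 5548 to 6311 CPM in sum, against 9400 to 11644 CPM in the WT-labelled libraries. There Umod was the largest part, with means of 3371 CPM in the KO-labelled and 6791 CPM in the WT-labelled libraries. Of 8 proximal tubule markers 4 fell and 0 rose. All 6 tested principal cell markers and 7 of 8 intercalated cell markers rose instead. In whole kidneys, fewer cells of a type and less RNA per cell cannot be told apart, and the part of these markers in the Pcsk6 difference was not tested.

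The genes whose profile over the 8 libraries lay nearest to that of Pcsk6 were Vstm2a, Ckb, Pdilt, Slc2a13 and Fam189a2, with root-mean-square differences of 0.15, 0.19, 0.20, 0.21 and 0.22 in centred log2 CPM among 13784 candidates. Ckb, the brain-type creatine kinase, averaged 59.3 ± 14.1 CPM in the KO-labelled and 180.5 ± 10.6 CPM in the WT-labelled libraries (SD, n = 4 each). Vstm2a averaged 6.86 ± 0.48 CPM in the KO-labelled and 20.8 ± 2.15 CPM in the WT-labelled libraries. The neighbours were chosen for their likeness to Pcsk6 in these same libraries, so their lower level is no separate result. The other members were farther from Pcsk6, with Pcsk5 the nearest of them at 0.71, while Furin and Mbtps1 were the closest pair among the members at 0.078. Nearest to Corin were Zfp707, Zfp119b, Spata2l, Zfp459 and Cnot9, at 0.076 to 0.097.

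**Figure D3:**
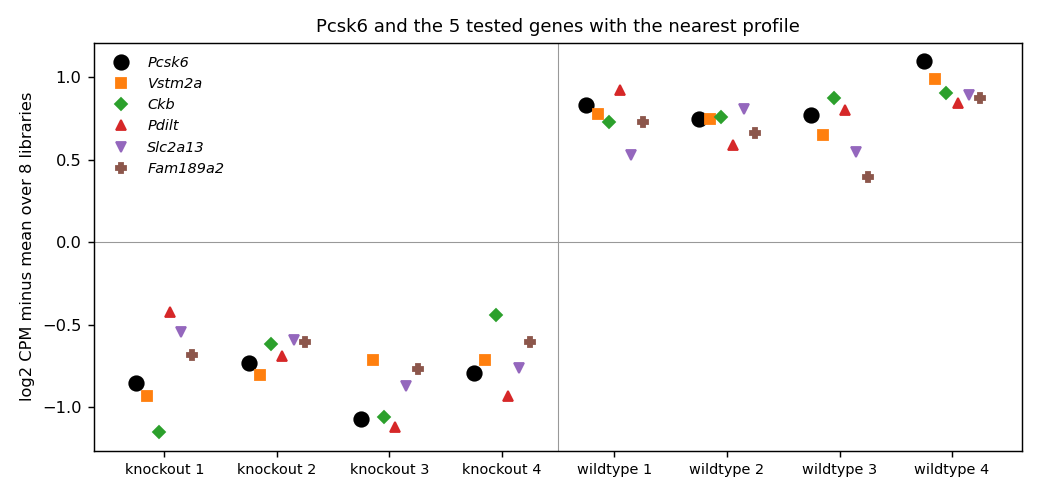
Log2 CPM minus each gene's mean over the 8 libraries (y axis), for Pcsk6 (black circles) and the 5 genes nearest to it, by library (x axis, KO-labelled at left). Pcsk6 and its neighbours lie below 0 in the 4 KO-labelled libraries and above 0 in the 4 WT-labelled ones. The neighbours were chosen for their likeness to Pcsk6 over these same 8 libraries, so the shared split is no separate result.

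The other genes of the system were tested in the fit across all genes. Of 11 further convertases, inhibitors and sorting partners, 10 had a row and 7 were tested, and of these 0 rose and 1 fell, where 6.23% of all tested genes rose and 5.7% fell. The median of these genes was 0.20 on the log2 scale. Serpinb8, a serpin that inhibits furin, fell to 13.2 ± 0.81 CPM in the KO-labelled libraries, against 18.8 ± 1.77 CPM in the WT-labelled ones (SD, n = 4 each; log2 fold change -0.51 ± 0.099, SE; edgeR adjusted p = 0.0078). The Serpinb8 call ended in the fit with the clock covariate, at -0.53 (edgeR adjusted p = 0.083), where 1 gene of the list rose and 0 fell. Scg5, the chaperone of PCSK2, is named here after its values were seen, at 47.9, 97.9, 82.3 and 141 CPM in the KO-labelled libraries against 42.8, 41.8, 18.9 and 45.6 CPM in the WT-labelled ones. Its groups did not overlap, but the spread was wide and it did not pass (log2 fold change 1.31 ± 0.40, SE, edgeR adjusted p = 0.081). The highest Scg5 value was in KO-labelled library 4, the library with adrenal transcripts. The part of these transcripts in the Scg5 difference was not tested. Pcsk4 had a difference of -0.02 ± 0.13 on the log2 scale (SE; edgeR adjusted p = 0.94).

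In the natriuretic peptide pathway the peptide genes themselves were nearly absent. Nppa, the precursor that corin cuts, had 0, 1, 0 and 0 reads in the KO-labelled libraries and 1, 0, 1 and 1 reads in the WT-labelled ones. Nppb had 1 read in all, in WT-labelled library 3. Of 12 pathway genes 11 had a row and 7 were tested, and of these 0 rose and 1 fell, where 6.23% of all tested genes rose and 5.7% fell. The list median was -0.22. Npr1, the receptor of atrial natriuretic peptide, stood at 48.5, 61.9, 50.1 and 62.8 CPM in the KO-labelled libraries and at 53.8, 49.0, 52.4 and 63.1 CPM in the WT-labelled ones, in the same range (11.7% of its exonic bases overlap the antisense gene Gm16048; log2 fold change 0.03 ± 0.11, SE; edgeR adjusted p = 0.89). Npr3, the clearance receptor, fell, with 21.2, 16.3, 18.0 and 18.6 CPM in the KO-labelled libraries against 33.6, 35.8, 19.1 and 26.8 CPM in the WT-labelled ones. The groups overlapped at WT-labelled library 3 (log2 fold change -0.63 ± 0.18, SE; edgeR adjusted p = 0.046). The Npr3 call ended without any 1 library other than WT-labelled library 3, at adjusted p = 0.054 to 0.13, and in 13 of 17 other settings in all.

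Known substrates of furin-like convertases moved in both directions. Of 35 listed and tested, 9 rose, 3 fell and 23 did not pass, where 6.23% of all tested genes rose and 5.7% fell. The median log2 fold change of the list was 0.11. Among the channel subunits, Scnn1g, the gamma subunit of the epithelial sodium channel, rose to 138, 154, 126 and 130 CPM in the KO-labelled libraries, against 97.5, 86.4, 93.0 and 94.9 CPM in the WT-labelled ones (log2 fold change 0.56 ± 0.077, SE; edgeR adjusted p = 0.0013). Scnn1a, the alpha subunit, stood at -0.20 ± 0.091 on the log2 scale (edgeR adjusted p = 0.20). Beside these, all 6 tested principal cell markers rose, with 1383 to 2233 CPM in sum over 7 markers in the KO-labelled libraries and 910 to 1172 CPM in the WT-labelled ones.

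Among the secreted precursors, Gdf15, a stress-induced member of the TGF-beta superfamily, rose most. It stood at 8.89, 29.4, 22.0 and 25.6 CPM in the KO-labelled libraries, against 4.59, 3.21, 3.32 and 4.67 CPM in the WT-labelled ones, with KO-labelled library 1 the lowest of its group (log2 fold change 2.44 ± 0.36, SE; edgeR adjusted p = 0.0040). In the fit with the clock covariate Gdf15 had 1.36 (edgeR adjusted p = 0.097). Edn1, the precursor of endothelin-1, rose to 8.93 ± 0.74 CPM in the KO-labelled libraries, against 3.99 ± 0.46 CPM in the WT-labelled ones (SD, n = 4 each; log2 fold change 1.16, adjusted p = 0.00053). Gdf11, a relative of Gdf15 known to be cut by PCSK5, rose by 0.81 ± 0.13 on the log2 scale (adjusted p = 0.0023), and Vegfc, a lymphatic growth factor, by 0.53 ± 0.13 (adjusted p = 0.021). Bmp7, an epithelial bone morphogenetic protein of the kidney, fell to 43.7 ± 1.94 CPM, against 59.7 ± 4.32 CPM in the WT-labelled libraries (adjusted p = 0.0027). The Vegfc call ended without KO-labelled library 2, WT-labelled library 1 or WT-labelled library 3, at adjusted p = 0.064, 0.054 and 0.062. The sorting receptors moved apart, with Sort1 rising by 0.36 ± 0.068 and Sorl1 at -0.47 ± 0.099 (SE; edgeR adjusted p = 0.0068 and 0.012). In the same libraries 8 of 9 macrophage markers rose, with 329 to 548 CPM in sum in the KO-labelled and 182 to 226 CPM in the WT-labelled libraries, as did 5 of 7 fibroblast markers, with 648 to 1021 CPM against 355 to 506 CPM; their part in these differences was not tested. Without KO-labelled libraries 1 and 4, 5 substrates rose and 1 fell, with Vegfc and Sorl1 at edgeR adjusted p = 0.074 and 0.051. Without WT-labelled library 1, or without WT-labelled library 3, 5 rose and 2 fell. Of all tested genes, 5.82%, 9.03% and 8.08% were called in these 3 fits, against 11.9% with all libraries. In the fit with the clock covariate 3 rose and 0 fell, and 787 of all genes passed, against 1817 without the covariate. The calls of Gdf11, Vegfc, Bmp7, Sort1 and Sorl1 ended (edgeR adjusted p = 0.058, 0.19, 0.099, 0.051 and 0.27). Their log2 fold changes in that fit were 0.74, 0.52, -0.35, 0.40 and -0.31, against 0.81, 0.53, -0.45, 0.36 and -0.47 without the covariate.

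No partner or substrate of site-1 protease passed. All 14 listed genes were tested and 0 rose or fell by edgeR, where 6.23% of all tested genes rose and 5.7% fell. An unadjusted edgeR p under 0.05 was found for 2 genes of the list and for 4133 of the 15228 genes tested. DESeq2 gave 1 call and limma voom 0. Without WT-labelled library 3, 1 gene of the list passed, where 8.08% of all tested genes did. The list's median was -0.06. Mbtps2, the site-2 protease that makes the second cut, had a log2 fold change of -0.10 ± 0.078, Srebf2 of -0.06 ± 0.10 and Atf6 of -0.14 ± 0.074 (SE; edgeR adjusted p = 0.45, 0.74 and 0.26). Creb3l3, a liver and intestine transcription factor named here after its values were seen, had the largest difference of the list, 1.37 ± 0.46 (adjusted p = 0.084).

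Of 13 serine proteases and inhibitors, listed around the membrane serine proteases to which corin belongs, 12 were tested. Of these 1 rose and 1 fell, where 6.23% of all tested genes rose and 5.7% fell. The median was -0.02. Hpn, which encodes hepsin, and St14, which encodes matriptase, had log2 fold changes of -0.08 ± 0.084 and 0.14 ± 0.096 (SE; edgeR adjusted p = 0.60 and 0.39). Serpine2, a serpin that inhibits serine proteases outside the cell, rose to 39.3 ± 2.21 CPM in the KO-labelled libraries, against 29.0 ± 2.43 CPM in the WT-labelled ones (SD, n = 4 each; log2 fold change 0.44, adjusted p = 0.0061). Prss8, which encodes prostasin, an activator of the epithelial sodium channel, fell to 338, 272, 326 and 316 CPM in the KO-labelled libraries, against 332, 402, 463 and 488 CPM in the WT-labelled ones. KO-labelled library 1 lay above WT-labelled library 1 (log2 fold change -0.43 ± 0.12, SE; edgeR adjusted p = 0.041). The Prss8 call ended without any 1 library other than these 2, at adjusted p = 0.066 to 0.11, and with library totals, at 0.081. In the fit with the clock covariate both calls ended, with 0.42 for Serpine2 and -0.13 for Prss8 on the log2 scale (edgeR adjusted p = 0.094 and 0.70).

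**Figure D4:**
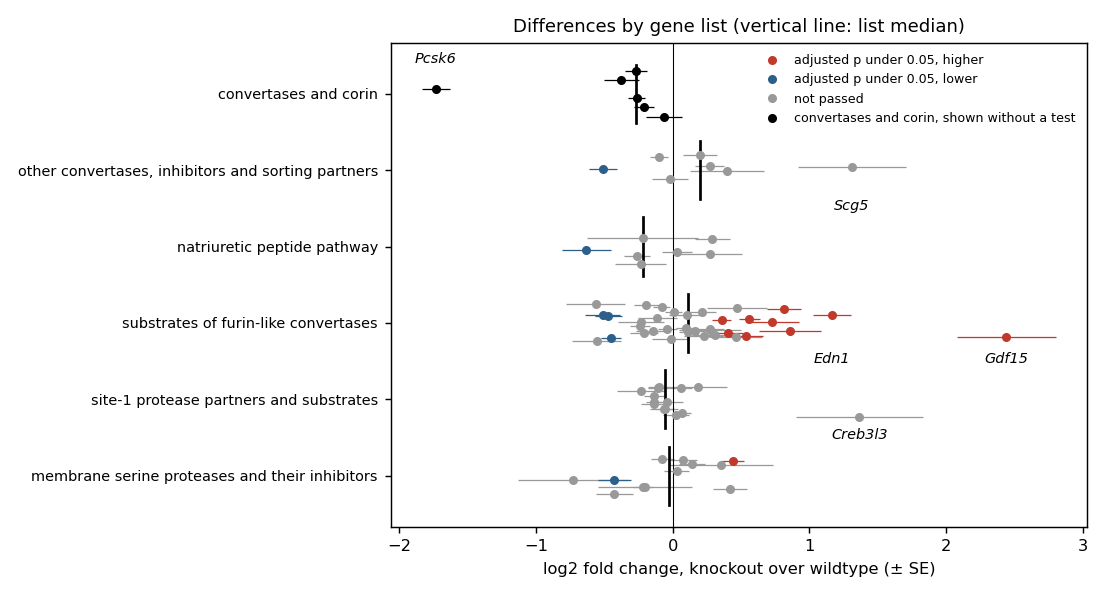
Log2 fold change of KO-labelled over WT-labelled libraries (x axis, ± SE) for each tested gene of the 6 lists (y axis), with the list median as a vertical line. Colours mark genes that passed an adjusted p of 0.05, the members are in black, and Pcsk6 at -1.73 lies apart from the other members at -0.38 to -0.07.

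Across the settings tried, the Pcsk6 difference stayed between -1.78 and -1.62 on the log2 scale. Furin remained between -0.34 and -0.17 and Pcsk7 between -0.29 and -0.16, whereas Pcsk5 ran from -0.53 to -0.032, Mbtps1 from -0.25 to -0.096 and Corin from -0.18 to 0.04.

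**Figure D5:**
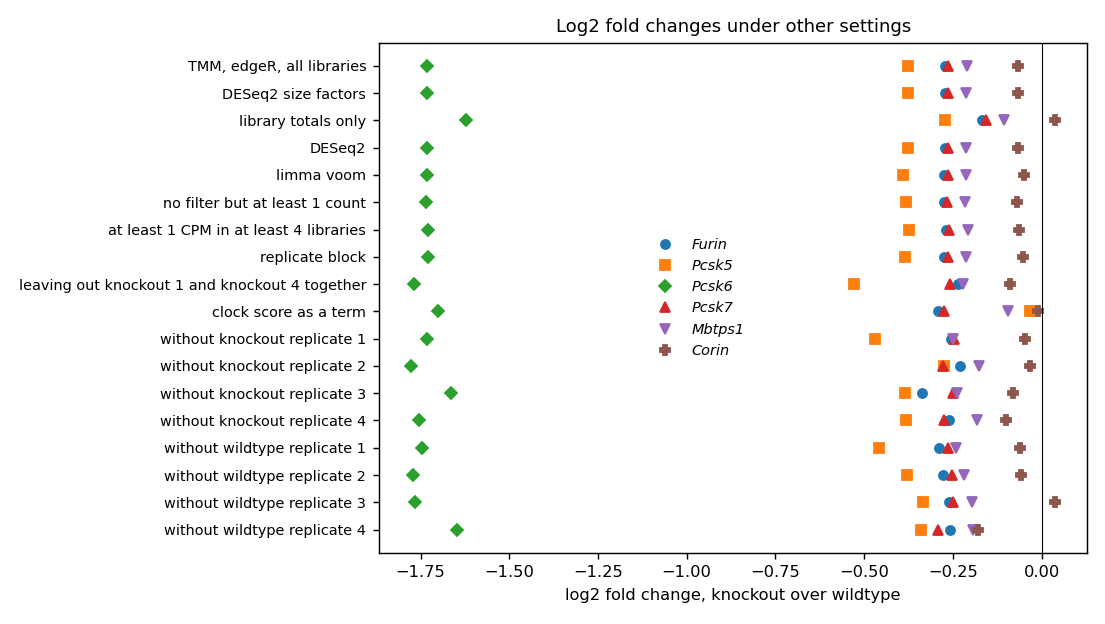
Log2 fold change of KO-labelled over WT-labelled libraries (x axis) of the 6 members under each scaling, tool, filter, covariate and left-out library (y axis). Pcsk6 lies between -1.78 and -1.62 in every setting drawn, and Corin crosses 0 with library totals and without WT-labelled library 3.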

How the data were processed

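The authors deposited 1 file of read counts per gene for each library, whole numbers that are not normalized. Per the submitters' processing notes, the tools were STAR, HTSeq and edgeR and the build was mm9. What each tool did, its version and the gene annotation are not stated. The deposited file names say that strand was not used, although the kit, per the labels' protocols, marks strand. Summary rows of the counter were left out; of the records in a file, 13.0% to 16.8% had no feature, 2.17% to 2.42% were ambiguous and 15.3% to 18.0% were not uniquely aligned. Symbols came from a gene name table (32860 identifiers matched); the 6 lists hold 91 entries, of which 89 were found in the files and 81 passed the filter. The entry Spring1 was matched through its older symbol.

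Genes kept by filterByExpr (15228) were scaled by TMM and compared with edgeR 4.0.16's robust quasi-likelihood test (R 4.3.3, two-sided, group as the only term). P-values were adjusted by Benjamini-Hochberg over all genes, with a threshold of 0.05. SEs are the log2 fold change over the root of F. Other settings were DESeq2 size factors, library totals, DESeq2 1.42.0, limma voom (limma 3.58.1), thresholds of 0.01 and 0.10, no filter, a filter of 1 CPM or more in 4 or more libraries, the clock covariate, a replicate block, and left-out libraries. The fit was also run on simulated data, but the outcome is not reported here and no statement rests on it. 1 listed gene is not reported here. Members and lists were chosen with earlier results of these data known. Named genes are the members, up to 8 called genes per list, 14 further genes of set roles, and the 5 nearest profiles (log2 CPM with a prior count of 2) of Pcsk6 and Corin. No pair of libraries in a group was a repeat of the other (chi-square over its degrees of freedom 9.72 to 24.8). Markers of podocytes (2 of 5 fell), endothelium (3 of 7 fell), intercalated cells (7 of 8 rose) and heart muscle (1 of 4 tested fell) were also measured; Cyp11b2 and Actc1 had at most 3 reads in any library. Libraries were made with PCR and the labels name no molecular identifiers, so a read count may overstate the number of molecules behind it.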

Additional observations from a re-analysis of the deposited data

Results flagged for a closer look

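In 52 groups of 4 values, those of 26 named genes, 1 had a library far from the other 3, measured by its gap to the next library over the whole range. Chance gives about 1 in 20 such groups. Srebf2, a site-1 protease substrate, had its highest WT-labelled value in library 2, at 146 CPM (gap over range 0.863).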

How the results depend on the processing

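Counts are those of genes past the threshold, and in the main setting they were 2 members, 1 gene of the inhibitors and partners, 1 natriuretic, 12 substrate, 0 site-1 protease and 2 serine protease genes, and 1817 of all genes. A threshold of 0.01 gave 1 member, 0 natriuretic, 6 substrate and 1 serine protease genes and 706 of all genes; a threshold of 0.10 gave 5 members, 2 inhibitors and partners, 1 site-1 protease gene, 5 serine protease genes and 2850 of all genes. Library totals gave 1 member, 2 inhibitors and partners and 0 natriuretic genes, with -0.16 for Pcsk7 and -0.11 for Mbtps1; of all genes 1658 were then higher and 508 lower in the KO-labelled libraries, against 949 and 868 with TMM. DESeq2 gave 3 members, 2 inhibitors and partners, 15 substrate, 1 site-1 protease and 5 serine protease genes and 2417 of all genes. With limma voom there were 3 members, 0 natriuretic genes and 1821 of all genes. In both tools Furin passed beside Pcsk6 and Pcsk7. Nothing is read from the member counts in any setting, since this contrast led to the choice of the family. No filter gave 0 natriuretic and 4 serine protease genes. Without KO-labelled libraries 1 and 4 there were 1 member, 0 natriuretic, 6 substrate and 1 serine protease genes and 912 of all genes. With the clock covariate there were 1 member, 1 gene of the inhibitors and partners (higher in place of lower), 0 natriuretic, 3 substrate and 0 serine protease genes and 787 of all genes, with -0.032 for Pcsk5 and -0.096 for Mbtps1; the cause was not tested.

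Leaving out 1 library at a time gave 1 to 3 members (1 without WT-labelled library 2 or 3), 1 to 2 inhibitors and partners, 0 to 1 natriuretic, 7 to 12 substrate, 0 to 1 site-1 protease and 1 to 3 serine protease genes, and 1076 to 1940 of all genes. Same-numbered libraries share only a number: their deviations from the group means correlated at -0.215, -0.21, -0.053 and 0.157. A replicate block gave 1 member, 0 natriuretic genes and 1094 of all genes. Depth limits Corin, with 186 to 307 reads per library, and the natriuretic peptide genes, with at most 8 reads.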
